A study of Mus musculus with 12 samples.

Results

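The genes described here are 36 members of the unfolded protein response and the integrated stress response. They are the entries of the deposited gene tables whose symbol equals one of 36 named genes, out of 20325 genes in each table, and all 36 passed the filter on low counts. By role they comprise 14 endoplasmic reticulum (ER) chaperones and folding factors, 4 genes of ER-associated degradation, 5 stress sensors and transcription factors, and 13 genes known as targets of the transcription factor ATF4. Both defining genes were well above background in every library: Hspa5 had 9161 to 19455 counts per library, and Atf4 had 144 to 316 CPM (counts scaled to a common library size).

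All cells derived from mouse embryonic fibroblasts (MEFs) with doxycycline-inducible OSKM factors, rtTA and, as the labels give it, AF10 fl/fl alleles. AF10 (Mllt10) is a cofactor of the histone methyltransferase DOT1L, and SGC0946 is an inhibitor of DOT1L. MEF_fl cells had received an adenovirus without a transgene (Ad5-CMV-Empty), and MEF_creAF10 cells, labelled AF10 -/-, had received Ad5-CMV-Cre. The other groups were harvested on day 4 of reprogramming, begun with 2 µg/mL doxycycline 2 days after the virus. They are Day4_fl_DMSO (empty virus, vehicle), Day4_fl_SGC (empty virus, 5 µM SGC0946), Day4_creAF10_DMSO (Cre virus, vehicle) and Day4_creAF10_SGC (Cre virus, 5 µM SGC0946). Each of the 6 groups has 2 libraries. The design has no Cre-treated cells without floxed alleles, so an effect of the Cre virus and of AF10 loss cannot be told apart. MEFs were grown in fibroblast medium, whereas reprogramming cells were kept in ESC medium that held LIF, on DR4 feeder MEFs over gelatin. Medium, feeder cells and doxycycline therefore cannot be told apart from the stage. Feeder MEFs are mouse cells, and their share of the day 4 reads was not tested.

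Proteins that enter the secretory pathway fold in the ER with the help of chaperones. When unfolded protein accumulates, the sensors IRE1 (Ern1), PERK (Eif2ak3) and ATF6 raise the transcription of chaperones and degradation genes, in part through spliced XBP1 and cleaved ATF6 bound to ER stress elements. PERK and other kinases that sense amino acid lack, heme lack or viral RNA phosphorylate eIF2, which lowers general translation and raises translation of ATF4, whose targets include amino acid synthesis and transport genes and the factor CHOP (Ddit3). Fibroblasts secrete much matrix protein and express ER chaperones at high levels.

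Motif matches in the promoters of these genes are shown with 10 bases on either side, or fewer where the window reaches the transcript start. RefSeq promoter sequences of build GRCm38.p6 were held for 33 of the 36 genes, and the 250 bases before each transcript start were searched on both strands. The ER stress element ERSE (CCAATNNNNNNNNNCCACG) was found in 7 of 12 ER chaperones, in 1 of 4 degradation genes and in none of the 4 sensors and 13 ATF4 targets with a promoter entry. In all 27025 genes of the promoter table it was found in 35, a share of 0.13%. The sites below run 5′ to 3′ on the strand of the gene, with the match in capitals.
Hspa5, chr2:34772015-34772053, plus strand: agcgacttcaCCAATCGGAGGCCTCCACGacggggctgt
Hsp90b1, chr10:86705628-86705666, minus strand: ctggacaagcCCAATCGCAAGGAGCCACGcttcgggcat
Calr, chr8:84847065-84847103, minus strand: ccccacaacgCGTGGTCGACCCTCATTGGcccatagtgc
Canx, chr11:50325790-50325828, minus strand: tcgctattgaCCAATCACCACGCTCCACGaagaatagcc
Pdia6, chr12:17266481-17266519, plus strand: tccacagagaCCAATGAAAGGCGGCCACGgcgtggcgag
Dnajc3, chr14:118937817-118937855, plus strand: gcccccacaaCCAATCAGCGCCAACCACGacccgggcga
Creld2, chr15:88819510-88819548, plus strand: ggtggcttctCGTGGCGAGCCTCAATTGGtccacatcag
Syvn1, chr19:6046522-6046560, plus strand: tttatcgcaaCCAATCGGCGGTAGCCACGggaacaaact

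Hsp90b1 held a second ERSE, and the match in Calr and Creld2 lies on the opposite strand of the gene. The shorter form ERSE-II (ATTGG, 1 base of any kind, then CCACG) was found in Herpud1 alone among these genes, against 10 of 27025 genes (0.037%). The C/EBP-ATF response element (TGATGNAA), which ATF4 dimers are known to bind, was found in 3 of 13 ATF4 targets (Asns, Chac1 and Slc7a11, which held 2) and in Herpud1, against 1056 of 27025 genes (3.91%). The cyclic AMP response element (TGACGTCA) was found in Ppp1r15a, against 478 of 27025 genes (1.77%). No 2 of these matches overlapped each other. These sites are shown as the ones found among the ATF4 targets, most of which had no match in this window, and in Herpud1, which has an element of both kinds.
Asns, chr6:7693215-7693242, minus strand: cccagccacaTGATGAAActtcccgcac
Chac1, chr2:119351039-119351066, plus strand: ttccctgccgTTGCATCActcctgccag
Slc7a11, chr3:50443662-50443689, minus strand: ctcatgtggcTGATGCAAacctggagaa
Herpud1, chr8:94386307-94386334, plus strand: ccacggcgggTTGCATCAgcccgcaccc
Herpud1, chr8:94386367-94386397, plus strand: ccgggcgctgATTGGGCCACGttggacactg
Ppp1r15a, chr7:45526269-45526290, minus strand: gcctctccggTGACGTCAgcac

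**Figure D1:**
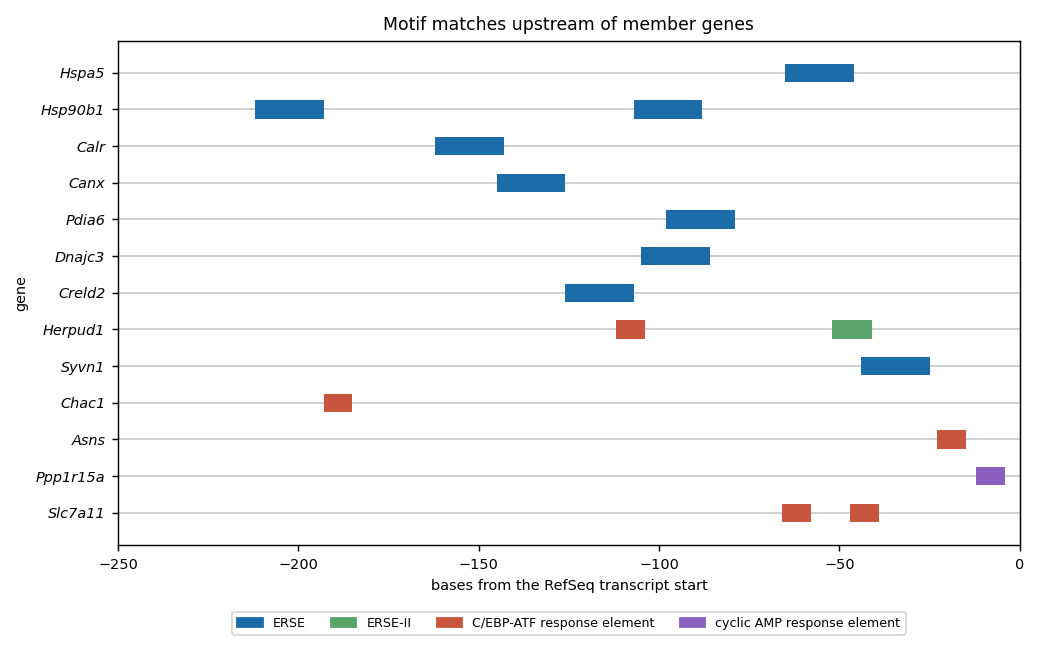
Motif matches in the 250 bases before the RefSeq transcript start (x axis, bases from the start) for the 13 genes with a match (y axis). Coloured bars are the matches and lie at true scale. ERSE matches fall in chaperones and Syvn1, and C/EBP-ATF elements in Asns, Chac1, Slc7a11 and Herpud1.

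A match describes these letters only, and known sites of the genes can lie elsewhere, such as in an intron or farther upstream. The sequences come from build GRCm38.p6, whereas the counts were made on mm9, so sites were matched to values by gene symbol.

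The libraries held 14602536 to 22800753 counts. Mllt10 itself was at 18.93 and 20.56 TPM (a level scaled by transcript length and library size) in MEF_fl and at 15.46 and 15.76 in MEF_creAF10. On day 4 it was at 22.34 to 25.4 TPM in the 4 libraries labelled fl and at 16.97 to 17.59 in the 4 labelled creAF10, so the groups did not overlap within a stage, although the gene remained detected. The 12 fibroblast markers summed to 29024 to 39282 TPM in MEFs and to 6394 to 7577 TPM on day 4, and none of them was at 0. The 13 macrophage and blood markers summed to 10.5 to 26.4 TPM in MEFs and to 58.8 to 94.6 TPM on day 4, with Hbb-b1 at 0 throughout. Libraries with the same replicate number deviated together from their group means, and the number is taken here to mark a source of cells. Y-linked genes summed to 4035 to 4780 counts in each replicate 1 and to 8 to 52 in each replicate 2. Tests were therefore run both without a term for the replicate number (the unpaired test) and with one (the paired test).

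Over the first 4 days of reprogramming in fl cells, most of the 36 genes fell. In the unpaired edgeR quasi-likelihood test 28 genes were lower and 2 were higher at an adjusted p under 0.05, with a median log2 change of -0.72. Among all 13936 genes tested, 26.3% were lower and 25.7% were higher, with a median of 0.01. In AF10-deleted cells 27 members were lower and 3 higher, against 27.5% of all genes in each direction, and the median change of the members was -0.68. Of the members, 27 were lower in both genotypes and 2 were higher in both, a count that was not made for all genes. The paired test called 29 lower and 3 higher in fl cells (all genes 30.2% and 29.2%), and 28 lower and 3 higher in AF10-deleted cells (all genes 31% and 31%). In bulk RNA, fewer cells of a type and less RNA per cell cannot be told apart. Fibroblast markers were lower along with the members, 11 of 12 passing the same test in fl cells, and their part in the result was not tested.

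**Figure D2:**
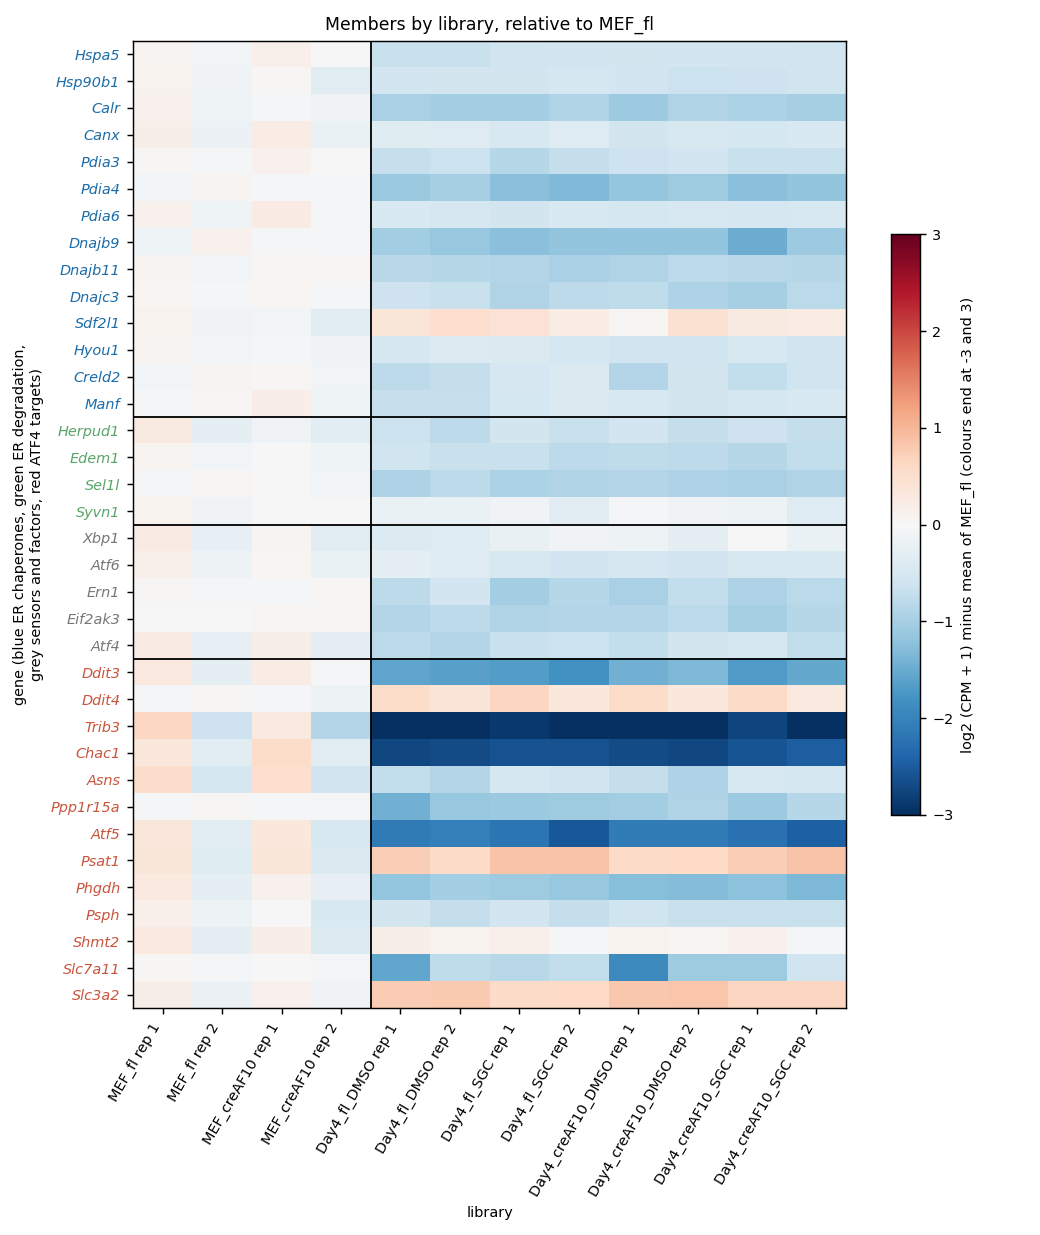
Level of each of the 36 genes (y axis, grouped by role) in each of the 12 libraries (x axis), as log2 (CPM + 1) minus the mean of both MEF_fl libraries. Blue is lower and red is higher. Most entries are blue in the 8 day 4 libraries, with Sdf2l1, Ddit4, Psat1 and Slc3a2 red.

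Most ER chaperones fell. In fl cells 13 of 14 were lower and none was higher, against 26.3% lower and 25.7% higher among all genes. The median log2 change of the chaperones was -0.67, with a range of -1.13 to 0.48 and an SD over genes of 0.39. DESeq2 also called none higher, and 1 chaperone was higher at an unadjusted p under 0.05. In AF10-deleted cells the same 13 were lower and 1 was higher, against 27.5% of all genes in each direction, and the chaperones had a median of -0.65. Added up, the 14 chaperones made up 5345 to 5814 TPM in the MEF libraries and 2983 to 3262 TPM in the 8 day 4 libraries. The 2 ranges lie far apart, and within each stage the sums were close to each other.

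Hspa5 encodes BiP, the main HSP70 chaperone of the ER and the one that keeps the sensors inactive. Its level was 965 and 855 CPM in MEF_fl and 1007 and 896 CPM in MEF_creAF10, against 571 to 618 CPM with a median of 602 in the day 4 libraries. All 8 day 4 libraries were below all 4 MEF libraries. Hspa5 was 1.59-fold lower on day 4 in fl cells (log2 change -0.67, SE 0.09, edgeR adjusted p = 0.000236) and 1.56-fold lower in AF10-deleted cells (adjusted p = 0.000279).

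Dnajb9, a DNAJ cochaperone that restrains IRE1, had the lowest change among the chaperones in both genotypes. It was at 49.0 and 58.9 CPM in MEF_fl and at 51.5 and 51.9 CPM in MEF_creAF10, and at 18.6 to 25.4 CPM on day 4. Its log2 change was -1.13 (SE 0.14, edgeR adjusted p = 0.000111) in fl cells, and AF10-deleted cells had -1.17. Pdia4, a protein disulfide isomerase, followed with -1.06, and Calr, the lectin chaperone calreticulin that binds glycoproteins and calcium, with -1.01 in fl cells. Calr had the highest level per length of all 36 genes in MEFs, at 1514 and 1316 TPM in MEF_fl and 1333 and 1341 TPM in MEF_creAF10, and was at 592 to 708 TPM on day 4. Both genes had all 8 day 4 libraries below all 4 MEF libraries.

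Smaller decreases were measured for Canx, the membrane lectin chaperone calnexin, and for Hyou1, an HSP70-like nucleotide exchange factor. Canx was at 686 and 531 CPM in MEF_fl, 699 and 529 CPM in MEF_creAF10 and 414 to 472 CPM with a median of 436 on day 4, with no overlap. It changed by -0.38 in fl cells (SE 0.14, edgeR adjusted p = 0.0491) and by -0.54 in AF10-deleted cells. The call in fl cells was lost under 10 of 17 alternatives, which are no filter on low counts and the removal of MEF_fl replicate 1 or of any of the 8 day 4 libraries (highest adjusted p = 0.345). That in AF10-deleted cells was lost without MEF_creAF10 replicate 1 or Day4_creAF10_DMSO replicate 1. Hyou1 had -0.46 in fl cells. Hsp90b1, the ER HSP90 called GRP94, had -0.56 and Pdia6, another disulfide isomerase, -0.49. The Hsp90b1 call in AF10-deleted cells (-0.47) was lost without MEF_creAF10 replicate 1 or Day4_creAF10_DMSO replicate 2. The other called chaperones, which are Pdia3, Dnajb11, Dnajc3, Creld2 and Manf, lay between -0.86 and -0.65 in fl cells.

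Sdf2l1, a small partner of the DNAJ cochaperones of the ER, was the chaperone that did not fall. It was at 9.25 and 7.83 CPM in MEF_fl, 7.95 and 6.54 CPM in MEF_creAF10, and 8.72 to 12.5 CPM on day 4, so the stages overlapped. Its change was 0.48 in fl cells (edgeR adjusted p = 0.0526, and 0.0353 in the paired test) and 0.52 in AF10-deleted cells (adjusted p = 0.0387). The latter call was lost under 7 of 17 alternatives, including DESeq2 and the removal of MEF_creAF10 replicate 2 or of any of 5 day 4 libraries.

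**Figure D3:**
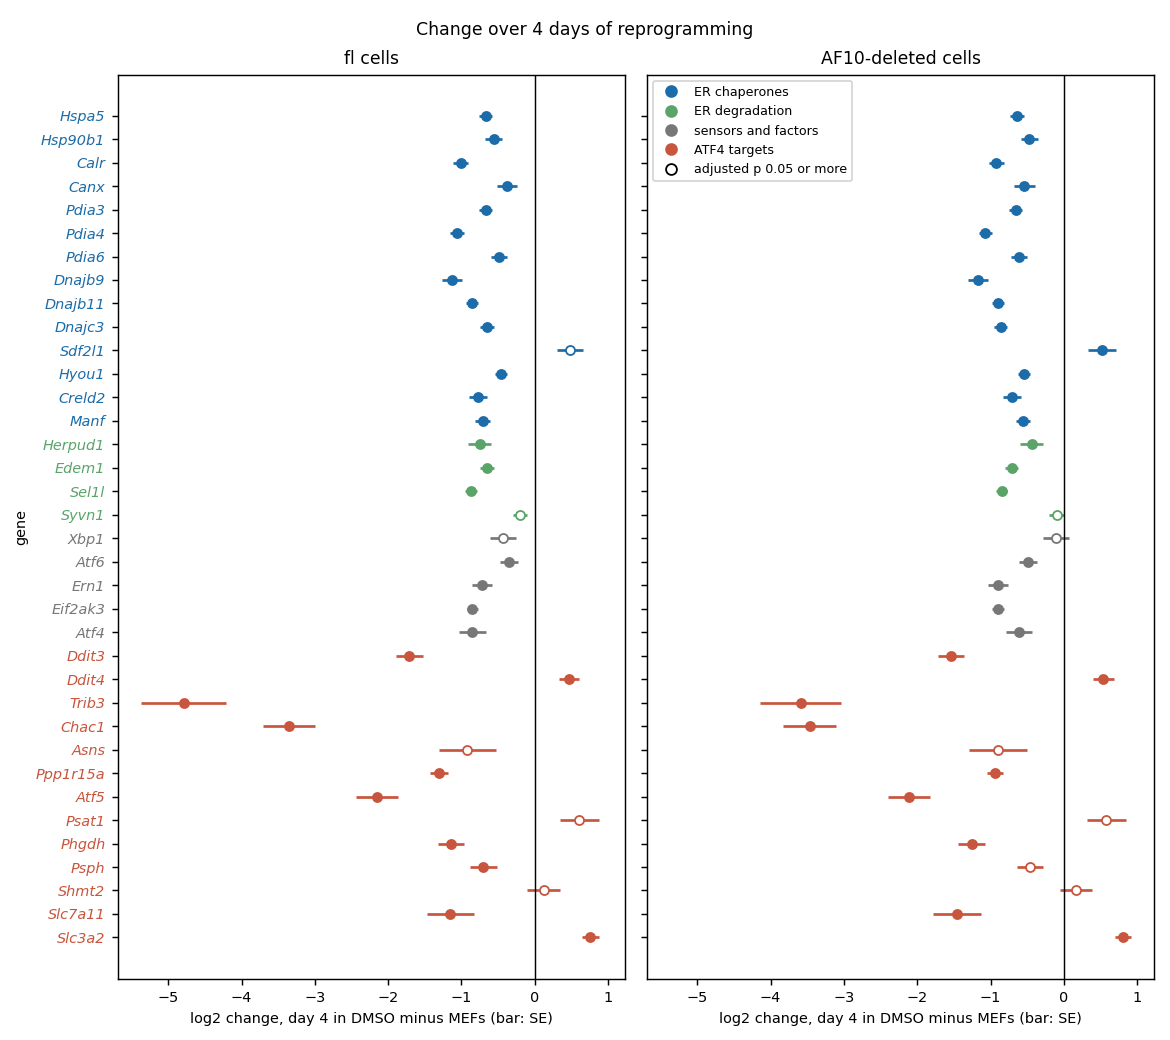
Log2 change from MEFs to day 4 in DMSO (x axis) of each gene (y axis) in fl cells (left) and AF10-deleted cells (right), from the unpaired edgeR fit; bars are standard errors and open circles did not pass an adjusted p of 0.05. Chaperones (blue) lie mostly between -1.17 and -0.38, and ATF4 targets (red) spread from -4.79 to 0.81.

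Of the 4 genes of ER-associated degradation, 3 were lower in both genotypes. Sel1l, the adaptor of the ubiquitin ligase complex, was at 267 and 277 CPM in MEF_fl, 269 and 255 CPM in MEF_creAF10 and 139 to 157 CPM on day 4. It was 1.82-fold lower in fl cells (log2 change -0.87, SE 0.08, edgeR adjusted p = 1.5e-05). Edem1, which directs misfolded glycoproteins to degradation, was at 92.1 to 108 CPM in MEFs and 55.4 to 66.3 CPM on day 4 and fell by 0.65 on the log2 scale in fl cells. Herpud1, a stress-induced scaffold of the complex, fell by 0.75 in fl cells and by 0.44 in AF10-deleted cells (adjusted p = 0.0436). In fl cells its change was -0.45 without MEF_fl replicate 1, still called (adjusted p = 0.0207). In AF10-deleted cells the Herpud1 call was lost under 9 of 17 alternatives, on leaving out MEF_creAF10 replicate 1 or any of the 8 day 4 libraries. Syvn1, the ubiquitin ligase HRD1, changed by -0.20 in fl cells (adjusted p = 0.128) and was not called.

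Among the sensors, the mRNA of each of the 3 branches was lower on day 4. Eif2ak3 (PERK) was at 72.3 and 71.1 CPM in MEF_fl, 74.0 and 73.8 CPM in MEF_creAF10 and 35.4 to 41.0 CPM on day 4. Its log2 change was -0.85 (SE 0.08, edgeR adjusted p = 2.45e-05) in fl cells, where replicates 1 and 2 gave -0.90 and -0.79. Ern1 (IRE1) changed by -0.72 in fl cells. Atf6 was at 86.8 and 70.3 CPM in MEF_fl, 81.8 and 68.0 CPM in MEF_creAF10 and 51.8 to 64.1 CPM on day 4, and changed by -0.35 in fl cells. The call of Atf6 (adjusted p = 0.03) was lost without MEF_fl replicate 1 or without either Day4_fl_DMSO library, with a highest adjusted p of 0.232.

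Xbp1, the transcript that IRE1 splices, overlapped between the stages. It was at 102 and 71.8 CPM in MEF_fl, 91.2 and 67.8 CPM in MEF_creAF10, and 64.1 to 85.0 CPM on day 4. Its change was -0.43 in fl cells (edgeR adjusted p = 0.0658, and 0.0224 in the paired test) and -0.11 in AF10-deleted cells (adjusted p = 0.608). In fl cells it was -0.16 without MEF_fl replicate 1 (adjusted p = 0.464) and -0.67 without MEF_fl replicate 2 (adjusted p = 0.00829). Gene-level counts do not separate spliced from unspliced Xbp1, and splicing was not tested.

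Atf4 was at 316 and 221 CPM in MEF_fl and 299 and 220 CPM in MEF_creAF10, and at 144 to 182 CPM with a median of 163 on day 4. The MEF values fall into a higher replicate 1 and a lower replicate 2, both above the day 4 libraries. Atf4 changed by -0.85 in fl cells (SE 0.18, edgeR adjusted p = 0.00407) and by -0.61 in AF10-deleted cells (adjusted p = 0.0189). The latter call was lost without MEF_creAF10 replicate 1 or Day4_creAF10_DMSO replicate 1, with adjusted p values up to 0.13. ATF4 is regulated mainly in translation, which RNA counts do not measure.

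The ATF4 targets moved in both directions and over a wider range than the chaperones. In fl cells 8 of 13 were lower and 2 higher, against 26.3% lower and 25.7% higher among all genes. The median log2 change of the targets was -1.14, with a range of -4.79 to 0.76 and an SD over genes of 1.60. In AF10-deleted cells 7 were lower and 2 higher, against 27.5% of all genes in each direction, and the targets had a median of -0.94. Their summed level was 980 to 1371 TPM in MEFs and 783 to 839 TPM on day 4. Within replicates, the median change in log2 (CPM + 1) in fl cells was -1.42 in replicate 1 and -0.74 in replicate 2 for ATF4 targets, -0.68 and -0.62 for ER chaperones and 0.01 in both for all genes. In AF10-deleted cells it was -1.22 and -0.84 for ATF4 targets and -0.76 and -0.54 for ER chaperones. The median of the ATF4 targets was below that of the chaperones in each of these 4 pairs, and the difference between the arms was not tested.

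The lowest changes among the ATF4 targets were those of Trib3, Chac1, Atf5, Ddit3 and Ppp1r15a. Trib3, a pseudokinase induced late in the response, was at 40.8 and 16.5 CPM in MEF_fl, 31.9 and 13.7 CPM in MEF_creAF10, and 0.825 to 3.02 CPM on day 4. The day 4 libraries held only 18 to 55 counts of it. Trib3 was 27.6-fold lower in fl cells (log2 change -4.79, SE 0.58, edgeR adjusted p = 0.000215) and changed by -3.59 in AF10-deleted cells (adjusted p = 0.000666). The size depends on the MEF libraries, with -3.99 without MEF_fl replicate 1 and -2.86 without MEF_creAF10 replicate 1. Chac1, which degrades glutathione, was at 12.7 to 24.6 CPM in MEFs and 1.61 to 2.14 CPM on day 4, and was 10.2-fold lower in fl cells. Atf5, a related transcription factor, was 4.45-fold lower, Ddit3 (CHOP) 3.27-fold lower and Ppp1r15a (GADD34, the phosphatase subunit that reverses eIF2 phosphorylation) 2.48-fold lower in fl cells. For each of these 5 genes all 8 day 4 libraries lay below all 4 MEF libraries.

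The serine synthesis and amino acid genes divided. Phgdh, the first enzyme of serine synthesis, changed by -1.14 in fl cells (edgeR adjusted p = 0.000689), and Psph, the last, by -0.70 (adjusted p = 0.00972). The Psph call was lost without MEF_fl replicate 1 or Day4_fl_DMSO replicate 2, and in AF10-deleted cells Psph had -0.46 (adjusted p = 0.0576, and 0.0171 in the paired test). Psat1, the enzyme between them, was at 109 and 65.9 CPM in MEF_fl, 109 and 62.2 CPM in MEF_creAF10 and 126 to 155 CPM on day 4, so that every day 4 library was above every MEF library. Its change of 0.61 in fl cells did not pass the unpaired test (SE 0.27, adjusted p = 0.0959) or the paired one (adjusted p = 0.0675). Psat1 was called higher with DESeq2 (adjusted p = 0.0388) and with a replicate term per stage (0.65, edgeR adjusted p = 6.08e-09). Its change was 1.02 without MEF_fl replicate 1 and 0.29 without MEF_fl replicate 2. Shmt2, the mitochondrial serine hydroxymethyltransferase, had 0.12 (adjusted p = 0.684), and Asns, asparagine synthetase, had -0.92 (SE 0.39, adjusted p = 0.0778). Asns was called lower with DESeq2 (adjusted p = 0.014) and with a replicate term per stage (-0.82, edgeR adjusted p = 2.81e-10). Without MEF_fl replicate 1 its change was -0.30 and without MEF_fl replicate 2 it was -1.35.

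The 2 subunits of the cystine transporter went opposite ways. Slc3a2, the heavy chain shared with other amino acid transporters, was at 184 and 144 CPM in MEF_fl, 178 and 152 CPM in MEF_creAF10 and 244 to 292 CPM on day 4. It was 1.70-fold higher in fl cells (log2 change 0.76, SE 0.11, edgeR adjusted p = 0.000423). Slc7a11, the light chain xCT, was at 36.4 to 38.8 CPM in MEFs and 9.44 to 24.8 CPM on day 4, with a log2 change of -1.15 (adjusted p = 0.016) in fl cells. Per length, Slc7a11 stood at 8.78 to 8.96 TPM in MEFs and Slc3a2 at 124 to 154 TPM. The Slc7a11 call in fl cells was lost without MEF_fl replicate 1 or Day4_fl_DMSO replicate 1 (highest adjusted p = 0.0889). Ddit4 (REDD1), an inhibitor of mTORC1, was the other gene that rose, from 84.1 to 95.2 CPM in MEFs to 115 to 148 CPM on day 4 (log2 change 0.47, adjusted p = 0.0161, in fl cells). Its call was lost without MEF_fl replicate 1 or Day4_fl_DMSO replicate 1, with a highest adjusted p of 0.101, and in AF10-deleted cells without Day4_creAF10_DMSO replicate 1.

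**Figure D4:**
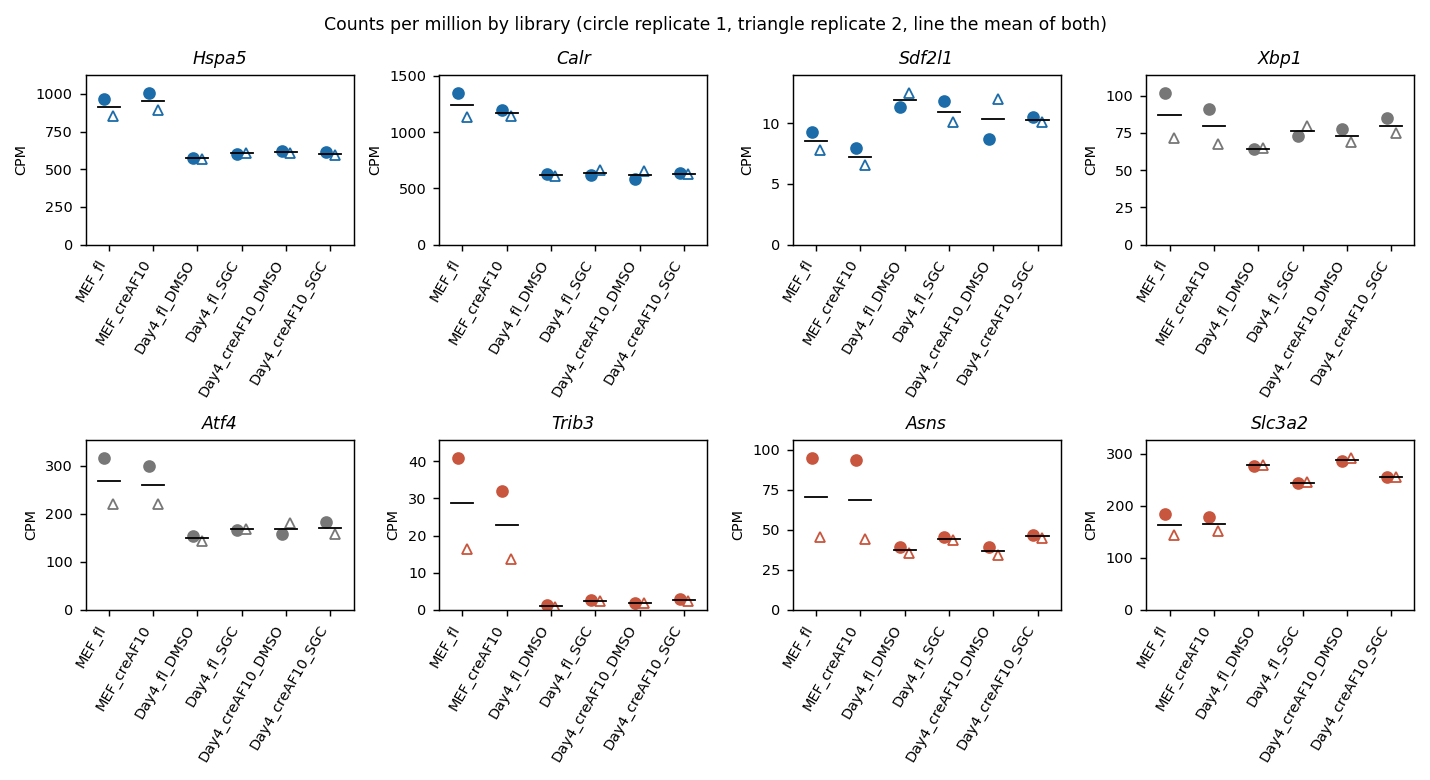
CPM (y axis, from 0) of 8 genes in the 6 groups (x axis); circles are replicate 1, triangles replicate 2 and lines the mean of both. Hspa5 and Calr are lower in every day 4 library, Slc3a2 is higher, Xbp1 and Sdf2l1 overlap, and Atf4, Trib3 and Asns have a higher circle than triangle in MEFs.

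Counting only whether the 8 day 4 libraries lay entirely on one side of the 4 MEF libraries in CPM, 13 of 14 chaperones, 3 of 4 degradation genes, 4 of 5 sensors and factors and 8 of 13 ATF4 targets were below. The ATF4 targets Ddit4, Psat1 and Slc3a2 were above. Of all genes tested, 26.9% were below and 27% above by the same rule.

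Further genes of the same pathways, from lists apart from the 36, were counted by the unpaired edgeR test in fl cells. That test called 26.3% of all genes lower and 25.7% higher. Of 44 other genes of ER folding, transport and degradation, 33 were lower and 2 higher, with a median of -0.53. Sec24d, a cargo adaptor of vesicles that leave the ER, changed by -1.35, Fkbp14, a prolyl isomerase of the ER, by -1.68 and P4hb, a protein disulfide isomerase, by -1.08. Derl3, a membrane protein of ER-associated degradation, was higher by 1.02 (edgeR adjusted p = 0.0473), at mean levels of only 0.538 and 1.1 CPM, and DESeq2 called 0 of the list higher. Of 42 other genes of the integrated stress response tested, 24 were lower and 6 higher, with a median of -0.50. Cth, which makes cysteine from cystathionine, was higher by 2.61 (SE 0.14, adjusted p = 8.53e-07), and Aars, the alanyl tRNA synthetase, changed by -1.79.

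The 13 genes of the eIF2 kinase and exchange factor list, counted likewise, gave 5 higher and 2 lower in fl cells. Eif2ak2, the kinase PKR that binds double-stranded RNA, changed by -2.43 (SE 0.10, edgeR adjusted p = 2.05e-07), and Eif2ak4, the amino acid sensing kinase GCN2, by 0.48. Chaperones outside the ER were called in both directions, where 25.7% of all genes were higher and 26.3% lower. Among 17 cytosolic heat shock genes 6 were higher and 5 lower with a median of 0.16, and among 9 mitochondrial chaperones 3 were higher and 1 lower with a median of 0.09. Hspa8, the constitutive cytosolic HSP70, was higher by 1.17, and the inducible Hspa1a changed by -1.76.

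Deletion of AF10 in MEFs left every member without a call. Both tests called 0 of 36, where the unpaired test called 0% of all genes and the paired test 0.962%. At an unadjusted p under 0.05 the unpaired test had 0 members and the paired test 4, and DESeq2 called 0. The paired log2 changes ran from -0.32 (Trib3, SE 0.11) to 0.11 (Chac1, SE 0.12), with a median of -0.05 and a median SE of 0.07. With 2 libraries a group, differences of the size of these standard errors were not detectable.

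On day 4 in DMSO, AF10 deletion again gave 0 calls in the unpaired test (0% of all genes, 2 members at an unadjusted p under 0.05, and 0 members with DESeq2). The paired test called 2 members higher and none lower, against 3.37% higher and 3.37% lower among all genes. Both are ATF4 targets. Ppp1r15a was at 37.9 and 46.9 CPM in Day4_fl_DMSO and at 50.2 and 55.6 CPM in Day4_creAF10_DMSO, a log2 change of 0.32 (SE 0.08, paired edgeR adjusted p = 0.0122). Trib3 was at 1.26 and 0.825 CPM against 1.85 and 1.90 CPM, a change of 0.87 (SE 0.26, adjusted p = 0.0447). Neither call was kept throughout. That of Ppp1r15a was lost on leaving out any of the 4 libraries compared (highest adjusted p = 0.191), and that of Trib3 under 11 of 15 alternatives to the paired test, among them DESeq2, each of the 4 MEF libraries and each of the 4 libraries compared. Hspa5 changed by 0.10 (SE 0.07) and Atf4 by 0.19 (SE 0.08, adjusted p = 0.14).

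Trib3 was also the member whose response to AF10 deletion differed between day 4 and MEFs in the paired test, by 1.19 (SE 0.29, adjusted p = 0.0332), against 0.933% higher and 0.222% lower among all genes. The unpaired test called 0 members for this interaction (0% of all genes, 1 member at an unadjusted p under 0.05, 0 with DESeq2). The Trib3 call was lost under 8 of 15 alternatives, which include DESeq2 and the removal of each MEF library, and it rests on the 18 to 34 counts of the DMSO libraries.

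Among 42 other genes of the integrated stress response, 4 were higher and 3 lower in Day4_creAF10_DMSO than in Day4_fl_DMSO by the paired test. That test called 3.37% of all genes higher and 3.37% lower. Atf3, a stress-induced transcription factor, was higher by 0.88 (edgeR adjusted p = 0.00387), Nupr1 by 0.53 and Gdf15, a secreted stress hormone, by 0.66. The amino acid transporters Slc7a5 and Slc7a1 changed by -0.49 and -0.39. The unpaired test called none of these 42 genes, 4 had an unadjusted p under 0.05 in it, and DESeq2 called 0.

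In the presence of SGC0946, AF10 deletion gave 0 member calls in either test, where the unpaired test called 0% and the paired test 0.172% of all genes. The unpaired test had 0 members at an unadjusted p under 0.05 and the paired test 2, and DESeq2 called 0. Paired changes ran from -0.21 to 0.14, and those of Trib3 and Ppp1r15a were 0.12 and 0.14. The difference between the deletion effects in SGC0946 and in DMSO was tested as an interaction and gave 0 members in both tests (0% and 0.395% of all genes, 0 members at an unadjusted p under 0.05 in the unpaired test and 0 with DESeq2). The value for Trib3 was -0.75 (SE 0.34, paired adjusted p = 0.445).

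SGC0946 in fl cells gave 0 member calls in the unpaired test, which called 1.11% of all genes and had 3 members at an unadjusted p under 0.05, and 0 with DESeq2. The paired test called 5 members higher and 2 lower, against 10.6% higher and 7.1% lower among all genes. The 10 epithelial markers moved with the inhibitor, with a sum of 54.9 and 52.9 TPM in DMSO and 129 and 119 TPM in SGC0946 and none at 0, and 8 of 9 tested were higher in the paired test. Their part in the result was not tested. Trib3 rose from 1.26 and 0.825 CPM in DMSO to 2.62 and 2.37 CPM in SGC0946, a log2 change of 1.27 (SE 0.25, paired edgeR adjusted p = 0.000583). This was the 1 call of the 7 that was kept under all 15 alternatives to the paired test, with changes of 1.05 to 1.50, although the levels rest on 18 to 40 counts per library. Creld2, a secreted folding factor of the ER, was at 23.0 and 24.1 CPM against 28.1 and 29.5 CPM (0.29, adjusted p = 0.0367). Xbp1 was at 64.1 and 64.7 CPM against 73.2 and 79.4 CPM (0.24, adjusted p = 0.0267). In both genes the SGC0946 libraries lay above the DMSO libraries. Asns (0.26) and Psat1 (0.21) were also higher. Pdia4 was at 193 and 208 CPM in DMSO and at 173 and 165 CPM in SGC0946 and changed by -0.24. Atf5 was at 40.8 and 42.3 CPM against 38.5 and 30.2 CPM and changed by -0.28.

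Each of those 6 calls was lost on leaving out 1 or more of the 4 libraries compared. Without Day4_fl_DMSO replicate 2 or Day4_fl_SGC replicate 2 all 6 were lost, without Day4_fl_DMSO replicate 1 those of Creld2, Xbp1 and Asns, and without Day4_fl_SGC replicate 1 those of Creld2, Asns and Psat1. The Creld2 call was also lost without Day4_creAF10_SGC replicate 1, and DESeq2 with the same terms gave none of the 6 except Pdia4. Hspa5 changed by 0.08 (SE 0.07) and Atf4 by 0.17 (SE 0.08, adjusted p = 0.143), neither of which was called.

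Among the other genes of the integrated stress response, SGC0946 in fl cells gave 11 higher and 3 lower of 42 in the paired test. That test called 10.6% of all genes higher and 7.1% lower. Nupr1 (0.74), Cbs, which makes cystathionine (1.36), and Atf3 (1.18) were higher, and Sesn2, an inhibitor of mTORC1, had -0.39. Cbs was also the 1 gene of the list called in the unpaired test (edgeR adjusted p = 0.0268).

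In AF10-deleted cells SGC0946 gave 0 member calls in the unpaired test, which called 0.00718% of all genes and had 0 members at an unadjusted p under 0.05, and DESeq2 called 0. The paired test called 2 members higher and 0 lower, against 5.28% higher and 2.47% lower among all genes. Epithelial markers summed to 76 and 73.3 TPM in DMSO and to 130 and 122 TPM in SGC0946, 8 of 9 being higher in the paired test, and their part was not tested here either. Asns was at 39.5 and 34.2 CPM in DMSO and at 47.1 and 45.1 CPM in SGC0946, a log2 change of 0.33 (SE 0.08, paired edgeR adjusted p = 0.00911). Slc7a11 was at 9.44 and 17.7 CPM against 17.8 and 24.8 CPM, a change of 0.66 (SE 0.15, adjusted p = 0.0117), with both SGC0946 libraries above both DMSO libraries, the nearest pair by a small margin. Both calls were lost without Day4_creAF10_SGC replicate 2. That of Asns was also lost without Day4_creAF10_DMSO replicate 2 and with DESeq2, and that of Slc7a11 without replicate 1 of either group. Trib3 had 0.52 (SE 0.22, adjusted p = 0.168). The comparisons of deletion and inhibitor in DMSO share the Day4_fl_DMSO libraries, so their values are given side by side only.

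The 2 sources of cells, marked by the replicate numbers, differed in the ATF4 arm while they were MEFs. This comparison was chosen with the data in view, and it sets libraries of 1 source against those of the other, so its p-values measure the spread between libraries of the same source and not between animals. In MEFs 17 members were higher in replicate 1 and none lower by the edgeR test with the replicate term per stage, against 15.4% higher and 12.9% lower among all genes. These comprised 10 of 13 ATF4 targets, 3 of 5 sensors and factors, 1 of 4 degradation genes and 3 of 14 chaperones. The median difference was 0.48 for ATF4 targets, 0.13 for chaperones and 0.00 for all genes.

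Asns, asparagine synthetase, was at 94.8 and 93.4 CPM in the replicate 1 MEFs and at 45.8 and 44.1 CPM in the replicate 2 MEFs, a log2 difference of 1.07 (SE 0.07, edgeR adjusted p = 8.26e-12). Trib3 had 1.26, Chac1 0.85, Psat1 0.77 and Atf5 0.73, and Atf4 itself had 0.48 (SE 0.08, adjusted p = 1.49e-05). In both MEF groups these genes were higher in replicate 1. Of the chaperones, Canx had 0.39, Hsp90b1 0.29 and Pdia6 0.27. Of the 17 calls, 10 were kept under all 15 alternatives. The others were lost without MEF libraries: those of Hsp90b1 and Psph without either MEF_creAF10 library (that of Psph also with DESeq2), those of Herpud1, Ddit3 and Slc3a2 without either MEF_fl library, and those of Pdia6 and Atf6 without any 1 of the 4. The highest adjusted p among these was 0.217, for Herpud1.

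On day 4 the sources were closer in these genes. There 1 member, Ddit4, was higher in replicate 1 (0.26) and 2 were lower, Slc7a11 (-0.56) and Ppp1r15a (-0.19), against 7.71% higher and 8.7% lower among all genes. The Ppp1r15a call was lost with DESeq2 and without either Day4_fl_DMSO or either Day4_creAF10_SGC library. Asns, at 34.2 to 47.1 CPM over the 8 day 4 libraries, differed by 0.12 between the sources. The change from MEFs to day 4 was also tested between the sources. This contrast is the source difference on day 4 minus that in MEFs, so it is not independent of the MEF comparison above. The change was more negative in replicate 1 for 15 members and more positive for none, against 9.94% and 6.59% of all genes. These were 10 ATF4 targets, Atf4, Xbp1, Canx, Hsp90b1 and Pdia6, and the values were -0.94 for Asns (SE 0.09, adjusted p = 2.05e-08) and -0.45 for Atf4. Of these 15 calls, 8 were kept under every alternative, and the other 7, which are Hsp90b1, Pdia6, Xbp1, Ddit3, Chac1, Slc7a11 and Slc3a2, were lost without 1 or more MEF libraries. For Chac1 this was MEF_creAF10 replicate 2 alone, for Hsp90b1 either MEF_creAF10 library, for Pdia6 and Slc7a11 any of the 4, and for the others either MEF_fl library. Ddit3 was also lost without either Day4_creAF10_SGC library, and Ddit3 and Chac1 with DESeq2.

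Among the 42 other genes of the integrated stress response, 31 were higher and 2 lower in replicate 1 MEFs. Their median was 0.43, and 15.4% of all genes were higher and 12.9% lower. Of 44 other genes of ER folding and degradation 6 were higher and 4 lower, with a median of 0.06. Fibroblast markers moved with this difference: 10 of 12 were higher in replicate 1 MEFs, and their sum was 39282 and 36895 TPM against 29028 and 29024 TPM. Macrophage and blood markers summed to 22.5 and 26.4 TPM against 10.5 TPM in both. The part of these cell types, of sex and of culture history in the difference was not tested. The labels name no source, and each replicate number was taken as a single source, so the difference has no replication over sources.

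**Figure D5:**
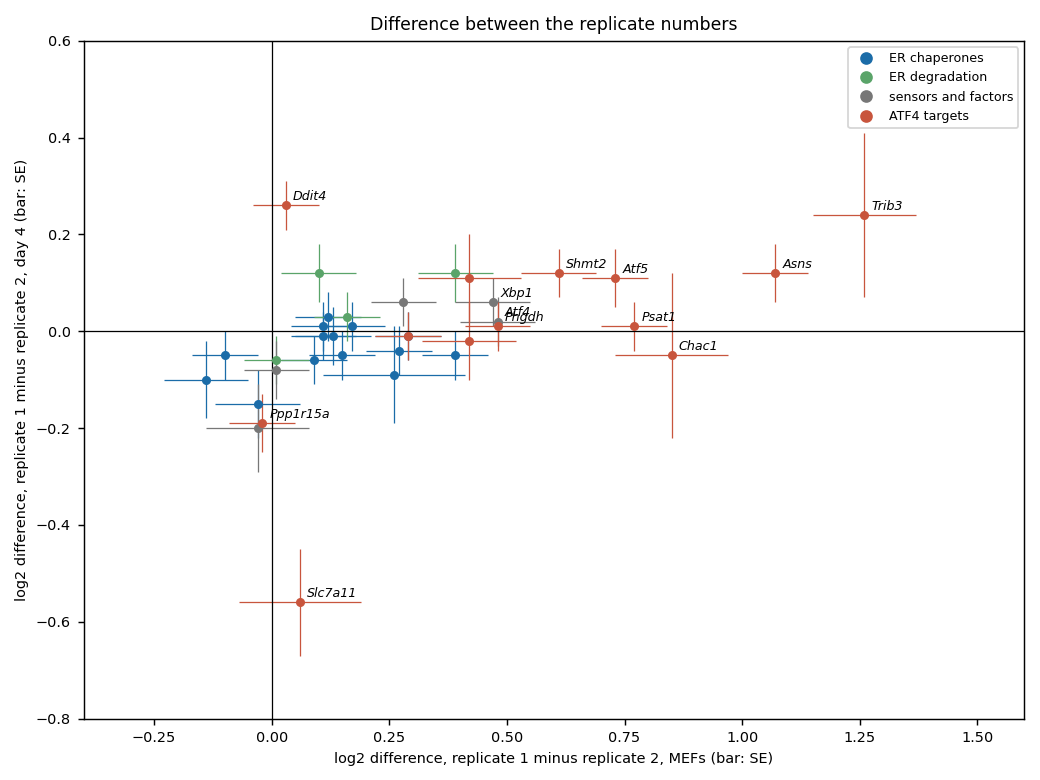
Log2 difference between replicate 1 and replicate 2 in MEFs (x axis) and on day 4 (y axis) for the 36 genes, with standard errors. ATF4 targets (red) extend to 1.26 in MEFs, while on day 4 most genes of all roles lie near 0 and Slc7a11 is at -0.56.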

How the data were processed

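Polyadenylated RNA of 12 libraries, 2 in each of 6 groups, was sequenced from TruSeq libraries, per the labels' protocols. RSEM and Bowtie were used on build mm9, per the submitters' processing notes; versions and options are not given in the sources used here. Each deposited table gives expected counts, TPM and FPKM for 20325 genes, per its header. The TPM values are the authors' own and were used for levels per length; the deposited FPKM values were not used. RSEM shares reads among similar genes, so near-identical copies are uncertain. Up to 25 gene names per table differed between the tables, and genes were matched through transcript identifiers. Groups came from the sample titles.

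Expected counts, as deposited, were rounded to whole numbers. Genes kept by filterByExpr (13936) were tested with edgeR 4.0.16 (R 4.3.3): TMM scaling, 1 fit over 12 libraries with a term per group, quasi-likelihood test, Benjamini-Hochberg adjustment over all genes kept, and an adjusted p under 0.05 as a call. CPM used TMM-scaled totals, and 1 was added before log2 in arm means. The fit was tested on simulated data. Replicate numbers were checked for pairing: deviations from group means correlated across genes at 0.286 to 0.737 over 15 pairs of groups, and Y-linked counts split by number. The correlations were 0.413 to 0.737 over 7 pairs within a stage and lower, at 0.286 to 0.34, over 8 pairs across stages. The labels do not name the sources. The paired test adds the replicate number, as 1 common term for day 4 against MEFs and once per stage for all other comparisons. The latter include the interaction of deletion with stage and the comparisons between sources. The biological coefficient of variation was 0.148 unpaired, 0.0906 with the common term and 0.0549 with a term per stage, where 4 residual degrees of freedom remained. Nothing in the labels says that libraries of a group are separate animals, so p-values measure the spread between these libraries.

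Alternatives were RLE size factors, DESeq2 1.42.0, no count filter, both replicate terms and leaving out each library; for the paired test and the source comparison they were chosen after seeing the data. The members and the gene lists were chosen with earlier results of these data known. Given in full are Hspa5, Atf4 and the called members with the lowest and highest change per arm; of other lists at most 3 called genes per direction, by lowest p. Promoters came from the RefSeq table of GRCm38.p6 and motifs were exact matches. The protein ends of the chaperones were not analysed here.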

Additional observations from a re-analysis of the deposited data

Results flagged for a closer look

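The change from MEFs to day 4 differed between the 2 sources of cells, by a test of the difference itself (edgeR, replicate term per stage), in 15 of the 36 genes. All 15 were more negative in replicate 1, against 9.94% of all genes more negative and 6.59% more positive. Of these 15 calls, 8 were kept under every alternative. The comparison was chosen with the data in view. The labels name no source, and each replicate number was taken as a single source. Each value is the log2 change in replicate 1 minus that in replicate 2. It equals the source difference on day 4 minus that in MEFs. For the ATF4 targets it was -1.03 for Trib3, -0.94 for Asns, -0.90 for Chac1, -0.76 for Psat1, -0.62 for Atf5, -0.62 for Slc7a11, -0.49 for Shmt2, -0.46 for Phgdh, -0.44 for Ddit3 and -0.30 for Slc3a2. For the factors it was -0.45 for Atf4 and -0.41 for Xbp1. For the chaperones it was -0.43 for Canx, -0.31 for Pdia6 and -0.30 for Hsp90b1. The effect of AF10 deletion on Trib3 was 1.19 higher on day 4 in DMSO than in MEFs in the paired test (adjusted p = 0.0332), on 18 to 34 counts per day 4 library.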

How the results depend on the processing

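Of the 30 members called between MEFs and day 4 in fl cells, 25 kept the call and its direction under each of 17 alternatives, and of the 30 in AF10-deleted cells 24 did. Median changes of all genes moved by at most 0.01 between scalings, and no called member changed sign. With a replicate block per stage, the members higher on day 4 were 4 in fl cells, AF10-deleted cells had 5, and the ATF4 targets higher in AF10-deleted cells were 4. With either replicate block 1 chaperone was higher in fl cells, and with DESeq2 0 were in AF10-deleted cells. The block per stage gave 2 members higher for AF10 deletion in DMSO, 5 higher and 2 lower for SGC0946 in fl cells, 2 higher for SGC0946 in AF10-deleted cells and 1 higher for the interaction of deletion with stage, against 0 without it; for day 4 against MEFs no count of lower members moved by over 1.5 times. Leaving out 1 library gave, in fl cells, 1 to 4 members, 1 to 3 ATF4 targets and 0 to 1 chaperones higher, and a chaperone median of -0.69 to -0.62; in AF10-deleted cells 1 to 3 ATF4 targets and 0 to 1 chaperones higher, and an ATF4 target median of -1.34 to -0.92. For the sources it gave 1 to 3 chaperones higher in MEFs, 1 to 3 chaperones with a more negative change, and 1 to 2 ATF4 targets lower on day 4, where DESeq2 gave 1. Without 1 library, the chaperone median in AF10-deleted cells was -0.73 to -0.57. The ATF4 target median in fl cells was then -1.28 to -0.83. The cause of these shifts was not tested. Where a removal left 1 library in a group, that library was assumed to vary like the others. Trib3 and Chac1 held 18 to 55 and 26 to 37 counts on day 4, which limits their precision.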
